A study of Homo sapiens with 4 samples.

Results

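SLIRP and 9 further nuclear genes whose products bind, stabilise, cut, tail or degrade mitochondrial RNA were followed in HEK293T cells with and without MORC2. They were 10 of the 28775 genes in the deposited table, taken by symbol. SLIRP was selected on its measured fall in the same MORC2 KO and WT libraries, so its change is given as a description without a test. LRPPRC, FASTK, FASTKD1, FASTKD2, FASTKD3, FASTKD5, TBRG4, MTPAP and PNPT1 were chosen for their function, with earlier results of these data known.

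RNA-seq was analysed from 4 libraries of HEK293T, a transformed human embryonic kidney line, to ask how gene expression differs when MORC2, a chromatin-bound ATPase, is disrupted. MORC2 KO replicates 1 and 2 were made with gRNA 1 and gRNA 2, by electroporation of Cas9 protein with the gRNA. Each was a bulk population and not a clone. As printed in the paper, the sequences of gRNA 1 and gRNA 2 are the same stretch shifted by 1 base. WT replicates 1 and 2 were wild-type cells of the same line. Polyadenylated RNA was captured, and the counts on genes summed to between 53970043 and 64312514 read pairs per library.

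Mitochondrial DNA is transcribed into long RNAs that are cut into mRNAs, rRNAs and tRNAs inside the organelle. SLIRP, a small protein with an RNA recognition motif, and LRPPRC, a large pentatricopeptide repeat protein, form a complex that protects the mitochondrial mRNAs and promotes their polyadenylation. The FASTK family, which shares a RAP domain, acts on the processing and stability of particular mitochondrial transcripts, while MTPAP adds their poly(A) tails and PNPT1 degrades RNA from the 3′ end.

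The targeted gene was lower in both KO libraries. MORC2 was at 51.2 and 55.0 CPM (read pairs scaled to library size with TMM factors) in MORC2 KO replicates 1 and 2, and at 86.2 and 87.7 CPM in WT replicates 1 and 2. The log2 fold change of KO over WT was −0.71 (adjusted p = 1.37e-04, edgeR's quasi-likelihood test over 16675 genes). The mRNA was thus reduced and not absent in these bulk lines. The paper measured the knockout on the protein, by western blot, and the mRNA level does not give the amount of protein left. Read pairs were not counted on the 23.3% of MORC2 exonic bases that lie in another gene as well. Of the HEK293T markers, VIM was at 547 to 585 CPM. NEFM, a neurofilament gene, was at 8.21 and 8.85 CPM in KO and at 6.57 and 5.99 CPM in WT (log2 fold change 0.44, adjusted p = 0.118). KRT18 was at 5.89 and 6.17 CPM in KO and at 6.55 and 6.80 CPM in WT, whereas PAX2 was at only 1.15 to 1.60 CPM and KRT8 at 1.97 to 2.46 CPM. PTPRC, CD3E, PECAM1 and HBB, markers of blood and vessel cells, had between 0 and 5 read pairs in any library, and ALB, a liver marker, was at or below 0.212 CPM. COL1A1, a fibroblast marker, was at 3.06 to 4.0 CPM, with the KO libraries below the WT libraries.

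SLIRP lies on chromosome 14 (T2T-CHM13v2.0, chr14:71917426-71926933, plus strand) and has 5 exons with 535 bases in all. It drew 3947 and 3738 read pairs in MORC2 KO replicates 1 and 2, and 4863 and 4154 in WT replicates 1 and 2. Scaled for depth, these were 66.0 and 56.6 CPM in KO against 81.7 and 78.0 CPM in WT. Both KO libraries were thus below both WT libraries, with MORC2 KO replicate 2 the lowest. The means were 61.3 ± 6.67 CPM in KO and 79.9 ± 2.60 CPM in WT (SD, n = 2 each), which put KO at 76.7% of WT. The log2 fold change was −0.38, the value by which SLIRP was selected. In bulk RNA, fewer cells with a transcript and less of it per cell cannot be told apart.

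Few genes were called lower in this comparison. At an adjusted p under 0.05, 103 of 16675 tested genes (0.618%) changed, of which 98 (0.588%) rose and 5 (0.03%) fell. SLIRP was among the 5 by the rule that chose it. The others were MORC2, CABLES1 (log2 fold change −0.49), the noncoding LINC00632 (−0.48) and NDUFAF8 (−0.40), whose product is an assembly factor of respiratory complex I. NDUFAF8 and SLIRP lay just inside the threshold. Next to them outside it were NAA38 (−0.36), a subunit of an N-terminal acetyltransferase, RPS26 (−0.55) and RPL36AL (−0.28), both ribosomal protein genes. By size alone, 433 tested genes had a log2 fold change at or below that of SLIRP, of which 360 had a mean log2 CPM under 0, at the weakly expressed end of the plot of change against abundance.

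**Figure D1:**
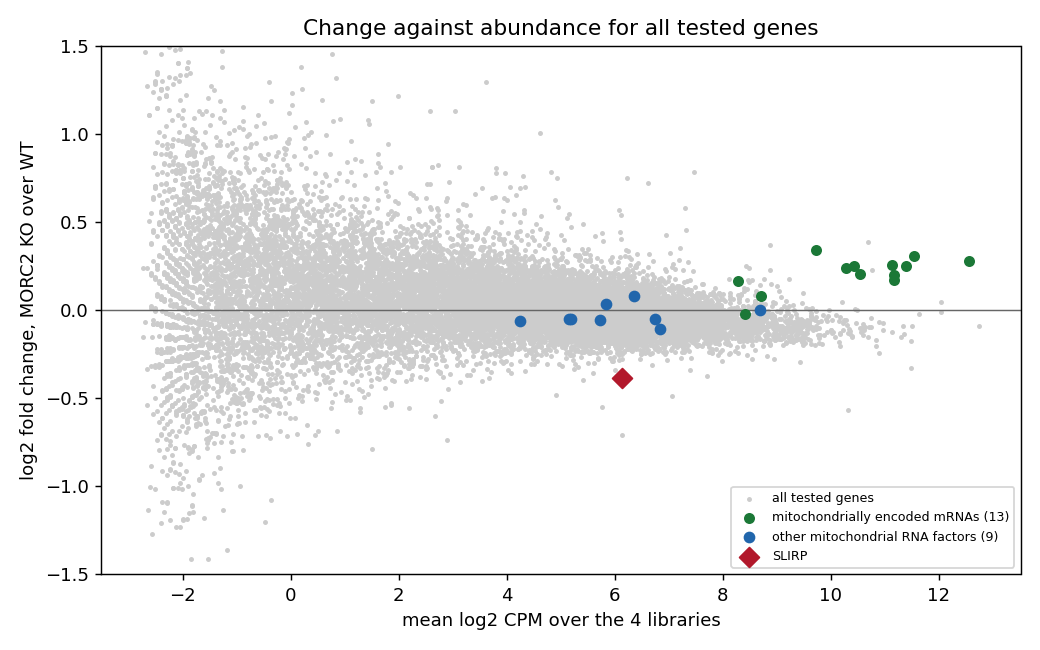
Each point is a tested gene, with the mean log2 CPM over the 4 libraries on the horizontal axis and the log2 fold change of MORC2 KO over WT on the vertical axis (33 genes lie beyond the limits of ±1.5). SLIRP (diamond, −0.38) lies at the lower edge of genes of its abundance, the other 9 factors between −0.11 and 0.08, and 12 of the 13 mitochondrially encoded mRNAs above 0.

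The start of SLIRP lies head to head with that of ALKBH1, a demethylase of nucleic acids on the minus strand, and 47 bases separate their outermost annotated starts. Those bases are shown because they lie directly upstream of both genes, of which SLIRP was lower in KO and ALKBH1 was not called. They are given 5′ to 3′ on the plus strand from the RefSeq promoter table (GRCh38.p14, chr14:77708024-77708070). Capitals mark only exact matches of the searched ETS-type motif CCGGAAG, and the shorter CCGGAA recurs in lower case.

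SLIRP to ALKBH1 gap: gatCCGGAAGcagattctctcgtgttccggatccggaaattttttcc

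The gap held 4 CpG sites and 48.9% G and C bases. Read on both strands, CCGGAAG was found in the same window of 3.71% of 27305 promoters, each taken at the first listed start of its gene. ALKBH1 was at 26.5 and 23.5 CPM in KO and at 26.2 and 26.9 CPM in WT. MORC2 KO replicate 1 lay between the WT libraries and replicate 2 below them, so the groups overlapped (log2 fold change −0.09, 95% interval −0.25 to 0.08, adjusted p = 0.617). SNW1, a splicing factor whose gene meets the 3′ end of SLIRP, was at 131.5 and 123.4 CPM in KO and at 139.1 and 137.0 CPM in WT. It was lower in both KO libraries without passing the test (log2 fold change −0.12, adjusted p = 0.389). SRA1, the RNA by which SLIRP was first found, had a log2 fold change of −0.12 (adjusted p = 0.413).

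**Figure D2:**
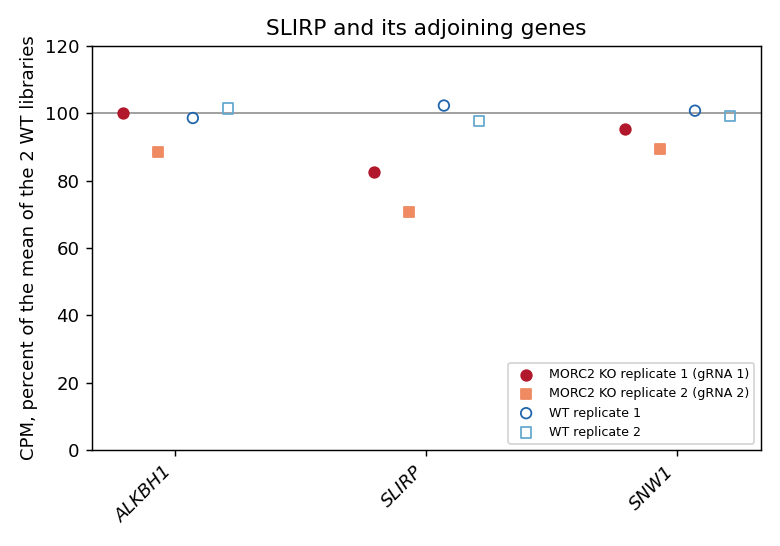
CPM of SLIRP and of the genes at its 5′ side (ALKBH1) and 3′ side (SNW1) in each library, as a percent of the mean of the 2 WT libraries. SLIRP was at 82.6% and 70.8% in MORC2 KO replicates 1 and 2, ALKBH1 at 100% and 88.5%, and SNW1 at 95.2% and 89.4%.

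LRPPRC, the partner of SLIRP (chr2:43891557-44001354, minus strand, 38 exons), had the highest CPM of the 10 factors, a measure not scaled for transcript length. It was at 423.3 and 408.4 CPM in KO and at 413.9 and 417.2 CPM in WT. The WT libraries lay between the KO libraries, and the log2 fold change was 0.00 (95% interval −0.13 to 0.13, adjusted p = 0.995).

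Among the FASTK family, 0 of 6 genes passed the test in either direction, against 0.618% of all tested genes. FASTK (chr7:152249742-152253927, 10 exons), the founding member, was at 83.7 and 85.6 CPM in KO and at 78.3 and 82.1 CPM in WT. Both KO libraries were above both WT libraries, as they were for 24.1% of all tested genes, and the log2 fold change was 0.08 (adjusted p = 0.548). TBRG4, also known as FASTKD4 and a stabiliser of several mitochondrial mRNAs (chr7:45260901-45272500, 11 exons), was at 113.8 and 105.7 CPM in KO and at 118.0 and 118.6 CPM in WT. Its log2 fold change of −0.11 (adjusted p = 0.425) was the largest in size among the 9 factors other than SLIRP. MORC2 KO replicate 2 was the lowest library. Without MORC2 KO replicate 1, TBRG4 had a log2 fold change of −0.18 and was called lower (adjusted p = 0.0207, edgeR), in a fit that called 12.4% of all genes lower.

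FASTKD1 (chr2:170005739-170051227, 15 exons), which is known to act on the mRNA of MT-ND3, was at 52.3 and 51.7 CPM in KO and at 53.0 and 55.2 CPM in WT. FASTKD2 (chr2:207247719-207278310, 12 exons), a protein of mitochondrial RNA granules that binds the large mitochondrial rRNA, was at 59.3 and 56.0 CPM in KO and at 56.6 and 55.8 CPM in WT. The KO libraries were below the WT libraries for FASTKD1 and overlapped them for FASTKD2, with log2 fold changes of −0.06 and 0.04. FASTKD3 (chr5:7798283-7808155, 7 exons), which affects the levels of several mitochondrial mRNAs, was at 18.7 and 18.4 CPM in KO and at 19.8 and 18.9 CPM in WT. FASTKD5 (chr20:3177419-3190765, 2 exons), required for cutting mRNA junctions that lack a tRNA, was at 35.9 and 36.2 CPM in KO and at 37.0 and 37.7 CPM in WT. Both were lower in each KO library by a margin that did not pass the test, with log2 fold changes of −0.06 (adjusted p = 0.722) and −0.05 (adjusted p = 0.726). Of the exonic bases of FASTKD5, 3.52% belong to another gene as well and were not counted.

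The enzymes that lengthen and degrade the RNA showed the same range. MTPAP, the mitochondrial poly(A) polymerase (chr10:30340827-30380279, 9 exons), was at 35.2 and 35.0 CPM in KO and at 37.4 and 35.3 CPM in WT. PNPT1, the polynucleotide phosphorylase (chr2:55631213-55690978, 28 exons), was at 108.4 and 103.0 CPM in KO and at 109.5 and 109.4 CPM in WT. Each had a log2 fold change of −0.05 with an adjusted p of 0.737 for MTPAP and 0.712 for PNPT1, and in each the KO libraries were just below the WT libraries.

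Over the 9 factors other than SLIRP, 0 passed the test, and 0 had an unadjusted p under 0.05 by edgeR, against 8.14% of all tested genes in the upward and 6.17% in the downward direction. DESeq2 also called 0 of them. Their log2 fold changes lay between −0.11 and 0.08 with a median of −0.05, beside a median of 0.005 over all tested genes. These medians moved together with the scaling, to −0.09 and −0.03 with offsets for GC content and length, and to −0.01 and 0.05 by library size alone. Without WT replicate 1 the median of the 9 was −0.03. Their 95% intervals together reached from −0.24 (TBRG4) to 0.20 (FASTK). In 6 of the 9, both KO libraries were below both WT libraries, whereas this held for 23.4% of all tested genes, 1 was above and 2 overlapped. The margins were small, as the plot of the 10 factors by library shows. Any exact permutation of 2 against 2 libraries has a smallest p of 0.333, so single genes were tested only in the fit across all genes.

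**Figure D3:**
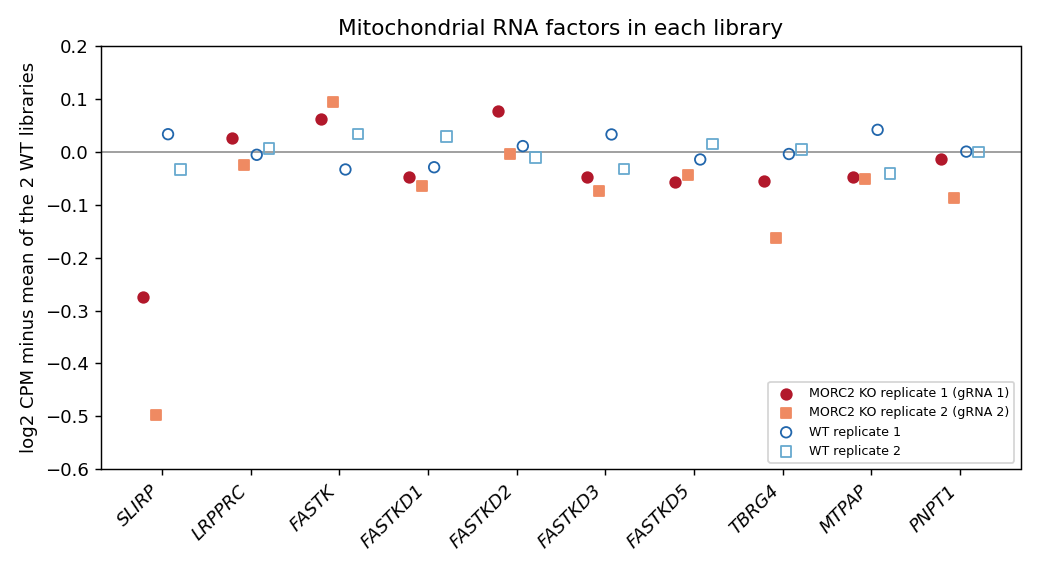
Log2 CPM of the 10 factors in each library, minus the mean of the 2 WT libraries (filled symbols MORC2 KO, open symbols WT). SLIRP lies at −0.27 and −0.50 in MORC2 KO replicates 1 and 2, and the KO libraries of all other factors lie above −0.2.

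Per length of exon, the order of the levels differed from that in CPM. SLIRP was first with a mean over the 4 libraries of 131.9 CPM per kb (range 106 to 153). Its CPM was divided by the shortest exon length among these factors, 535 bases. LRPPRC followed with 63.0 CPM per kb, then TBRG4 with 51.2 and FASTK with 46.0, whose ranges overlapped each other. PNPT1 was at 23.7 CPM per kb, FASTKD5 at 12.9, FASTKD1 at 10.9, FASTKD2 at 8.46, FASTKD3 at 7.42 and MTPAP at 6.42. Apart from TBRG4 and FASTK, the ranges of neighbours in this order did not overlap. Even the lowest SLIRP library was above the highest of LRPPRC. With the coding length in place of the exon length, the first 5 places were kept, and FASTKD3 took the last place from MTPAP. A merged exon length is not the length of the transcript in the cell, so the order of the 5 lower genes rests on that choice.

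**Figure D4:**
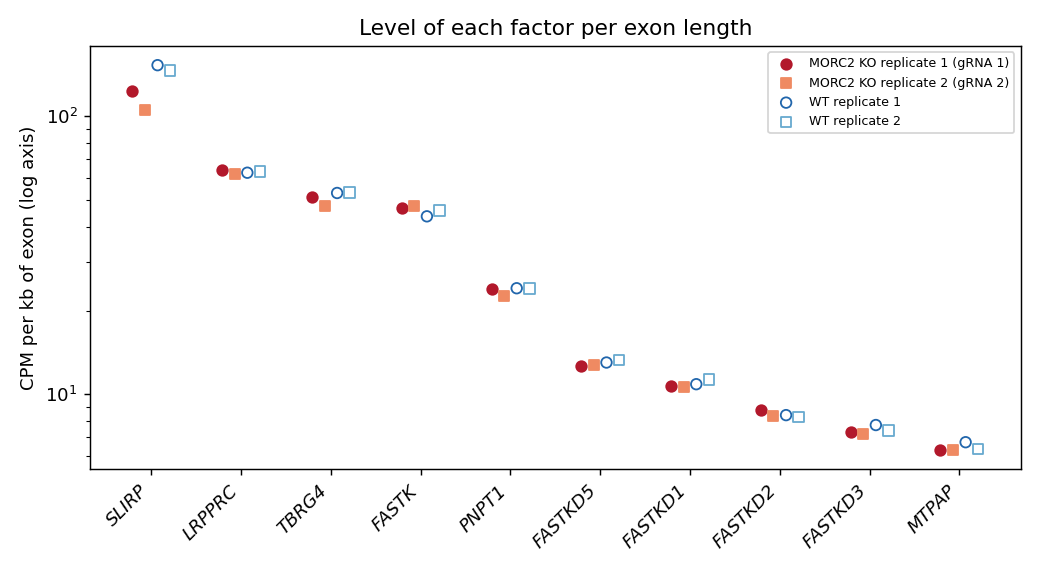
CPM per kb of exon of each factor in each library, on a logarithmic axis and in descending order. SLIRP lies between 106 and 153, above LRPPRC at 61.9 to 64.1, and MTPAP is lowest at 6.30 to 6.72.

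The pattern of SLIRP over the 4 libraries was next compared with that of every tested gene, as the Euclidean distance between log2 CPM profiles after subtraction of each gene's mean. NAA38 was nearest (distance 0.0283), with 46.1 and 39.3 CPM in KO and 55.6 and 53.8 CPM in WT. SCARF1 (0.0318), ROBO2 (0.0476), RPS26P11 (0.0497) and ST6GALNAC3 (0.0523) followed. SCARF1 was at only 0.136 to 0.218 CPM, and RPS26P11 is a copy of RPS26 that can share reads with it. With Pearson's correlation over the 4 libraries as the measure, 1 of these 5 genes (SCARF1) remained among the nearest 5. The distances are a description over 4 libraries and use the values by which SLIRP was chosen. None of the other 9 factors was among the 5 genes, which says nothing about them with 16675 genes tested.

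The RNAs on which these proteins act were counted in the same libraries. MT-CO1, which encodes the catalytic subunit of cytochrome c oxidase, was at 5830 and 7417 CPM in KO and at 5751 and 5151 CPM in WT. MT-ND6, the complex I subunit encoded on the light strand, was at 858 and 1025 CPM in KO and at 792.5 and 697 CPM in WT, and its log2 fold change of 0.34 was the largest of the 13 mRNAs (adjusted p = 0.153, edgeR). In both, MORC2 KO replicate 2 stood above the other libraries and WT replicate 2 was the lowest. The counting ignored strand, so light-strand MT-ND6 and heavy-strand RNA across the same bases were counted together. How much of the count and change at MT-ND6 belongs to its own mRNA cannot be told from these data.

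Of the 13 mitochondrially encoded mRNAs, 0 passed edgeR's test, against 0.588% of all tested genes that it called higher. DESeq2 called 1 (MT-ND6) higher, and 0.748% of the genes to which it gave an adjusted p. Unadjusted, 9 had a p under 0.05, all of them higher in KO, against 8.14% of all tested genes. The median log2 fold change was 0.24, and 12 of 13 values were above 0, from 0.08 (MT-ATP8) to 0.34 (MT-ND6), with MT-ND3 at −0.02. Both KO libraries were above both WT libraries for 6 mRNAs (MT-ND4, MT-ND6, MT-CO1, MT-CO2, MT-ATP6 and MT-CYB), as they were for 24.1% of all tested genes, and the groups overlapped for the other 7. The mRNAs lie on 1 molecule, are made from shared precursors and so are not separate measurements, and nuclear copies of mitochondrial DNA can share their reads, since multi-mapping reads were counted.

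The size of this difference moved with the library left out. The 13 mRNAs took 2.39% of the counts in MORC2 KO replicate 1 and 3.03% in replicate 2, and 2.36% in WT replicate 1 and 2.08% in replicate 2. MORC2 KO replicate 1 and WT replicate 1 were thus nearly equal. Without MORC2 KO replicate 1, the median log2 fold change was 0.36 and 11 mRNAs were called higher, as were 8.16% of all genes in that fit. Without MORC2 KO replicate 2 it was 0.07 and 1 was called higher, as were 0.838% of all genes in that fit. Leaving out WT replicate 1 gave 0.34, and leaving out WT replicate 2 gave 0.14, with 0 called in each. SLIRP was also lowest in MORC2 KO replicate 2, and whether these measurements are related was not tested.

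**Figure D5:**
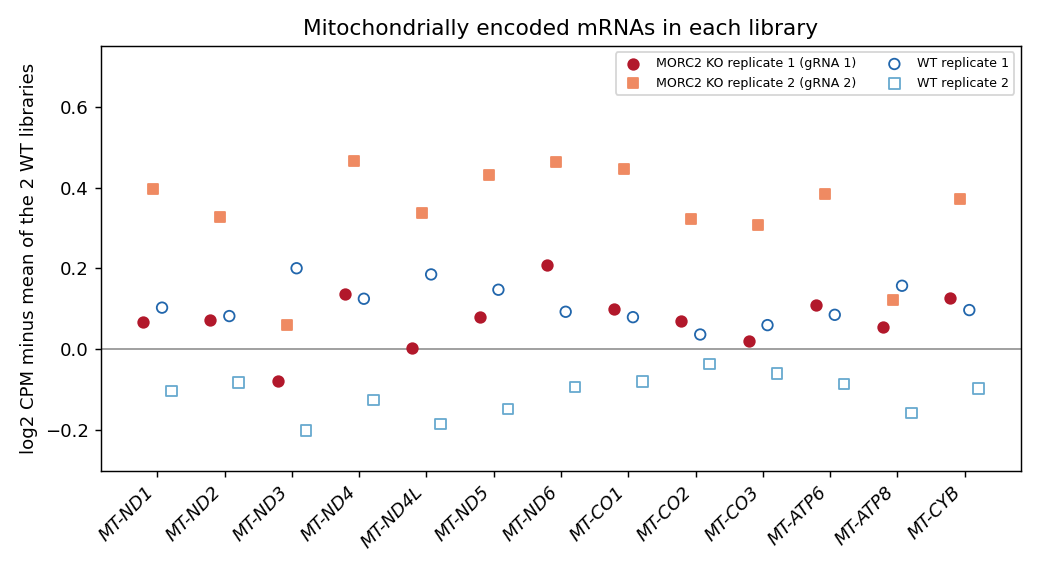
Log2 CPM of the 13 mitochondrially encoded mRNAs in each library, minus the mean of the 2 WT libraries. MORC2 KO replicate 2 (filled squares) is highest for 11 mRNAs, while MORC2 KO replicate 1 (filled circles) lies close to WT replicate 1 (open circles) for most, and WT replicate 2 is lowest for all 13.

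The mitochondrial rRNAs, which carry short tails and are captured only in part by poly(A) selection, did not move together. MT-RNR1, the small rRNA, was at 411 and 415 CPM in KO and at 512 and 478 CPM in WT, so that both KO libraries were below both WT libraries (log2 fold change −0.26, adjusted p = 0.118). MT-RNR2, the large rRNA, was at 1692 and 2084 CPM in KO and at 1741 and 1484 CPM in WT (log2 fold change 0.23, adjusted p = 0.342), with overlapping groups, and MORC2 KO replicate 2 highest and WT replicate 2 lowest, as for 11 of the 13 mRNAs.

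Other genes of the same pathway gave little change. Of 57 further nuclear genes in 6 groups, 0 were called by edgeR and 0 by DESeq2, against 0.618% of all tested genes, and 6 had an unadjusted p under 0.05, all lower in KO, against 6.17% of all tested genes. Their median log2 fold change was −0.05, with 14 values above 0 and 43 below. It was −0.09 without MORC2 KO replicate 1 and −0.0084 without MORC2 KO replicate 2, while the median over all tested genes was −0.002 and 0.00068. With offsets for GC content and length it was −0.09, and by library size alone −0.01. Both KO libraries were below both WT libraries for 25 of the genes (23.4% of all tested genes), above them for 4, and overlapping for 28. Without MORC2 KO replicate 1, 16 of the 57 were called, all lower, beside 12.4% of all genes.

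In mitochondrial transcription, 0 of 6 genes had an unadjusted p under 0.05. TFAM, which packages and activates mitochondrial DNA, was at 141.0 and 136.2 CPM in KO and at 149.2 and 146.3 CPM in WT (log2 fold change −0.09, adjusted p = 0.471). TFB2M, a transcription initiation factor, had a log2 fold change of −0.08 (adjusted p = 0.627). Among 8 genes for cutting transcripts and finishing tRNA ends, 1 had an unadjusted p under 0.05. This was HSD17B10, a subunit of mitochondrial RNase P, at 120.1 and 102.1 CPM in KO and at 125.4 and 122.8 CPM in WT (log2 fold change −0.16, adjusted p = 0.346). TRMT10C, the methyltransferase subunit of the same enzyme, had a log2 fold change of −0.13 (adjusted p = 0.375).

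All 4 genes of RNA turnover had values below 0 and none was called. REXO2, an oligoribonuclease that clears the short products of PNPT1, was at 57.8 and 53.8 CPM in KO and at 64.1 and 62.0 CPM in WT. Its log2 fold change of −0.18 was the lowest of the 57 genes (adjusted p = 0.248). GRSF1, an RNA-binding protein of the RNA granules, had a log2 fold change of −0.11 (adjusted p = 0.423). Of 18 genes for rRNA modification and RNA granules, 2 had an unadjusted p under 0.05, MRM3, an rRNA methyltransferase (log2 fold change −0.17, adjusted p = 0.268), and RCC1L, a factor of mitochondrial ribosome assembly (−0.16, adjusted p = 0.256). Exonic bases shared with another gene made up 25.9% of RCC1L.

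For tRNA modification, TRMU, which thiolates mitochondrial tRNAs, had a log2 fold change of −0.15 (adjusted p = 0.318) and PUS1, a pseudouridine synthase, of −0.11 (adjusted p = 0.405), with 5 of 9 values in the group above 0. The 12 translation factors all had values below 0, with a median of −0.07. TUFM, the mitochondrial elongation factor Tu, was at 353 and 326.8 CPM in KO and at 372 and 385 CPM in WT (log2 fold change −0.15, adjusted p = 0.313). GFM1, an elongation factor G, had a log2 fold change of −0.13 (adjusted p = 0.359). The 2 pathway genes named in each group were those with its smallest p, and all were lower in KO. Partly through that choice, the lowest library was MORC2 KO replicate 2 in each of them apart from PUS1. Over all tested genes, this library also lay farther from WT (median absolute log2 CPM difference 0.141 and 0.163) than replicate 1 (0.0880 and 0.0882). The share of all tested genes with this library lowest was not counted.

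Promoter sequence was available for 9 of the 10 factors as the 250 bases before the start, from the RefSeq table (GRCh38.p14), and was searched on both strands. For genes with several starts, the factors were read at the outermost start and the promoters they are set beside at the first listed start. CCGGAAG, the ETS-type motif, was found for SLIRP and TBRG4, and in 8.82% of 27305 promoters. The YY1-type motif AAGATGG was found for SLIRP and LRPPRC and in 3.77% of promoters. The SP1-type motif GGGCGG was present for FASTK, FASTKD3 and PNPT1 (42.3% of promoters), and CCAAT for the same 3 genes and LRPPRC (33% of promoters). The NRF1 motif was found for none of the 9, and in 5.53% of promoters. Such matches describe letters and not binding. SLIRP was the only 1 of the 9 with both CCGGAAG and AAGATGG. The motifs can share letters, since CCGGAAG ends and AAGATGG begins with AAG. The copy of CCGGAAG in the gap to ALKBH1 is followed by CAG and shares none with AAGATGG. No complete AAGATGG was found inside that gap of 47 bases.

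FASTKD2 and FASTKD3 also have neighbours that start close by on the other strand. FASTKD3 and MTRR, a reductase of methionine synthase, are 116 bases apart, with log2 fold changes of −0.06 and −0.05, and neither was called. FASTKD2 and MDH1B are 277 bases apart, with log2 fold changes of 0.04 and 0.07. SLIRP and ALKBH1 thus had the closest starts of the 10 factors.

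SLIRP is a short transcript, so the shift of short genes in these libraries was set beside its value. The median log2 fold change was −0.03 over the 901 tested genes with at most 800 exonic bases and 0.02 over the 4883 genes with more than 5000. With offsets for GC content and length, SLIRP had a log2 fold change of −0.42, while the same offsets put the median over all tested genes at −0.03, that of the shortest class at −0.03 and that of the longest at −0.02. It was among the genes called lower in 15 of 16 other fits, a property of the rule that chose it and not a test, and was missing from the fit without WT replicate 1. Its log2 fold change was −0.51 without MORC2 KO replicate 1 and −0.27 without MORC2 KO replicate 2.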

How the data were processed

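Reads were aligned by the authors with Subread 2.0.6 against T2T-CHM13v2.0, and they deposited counts of read pairs per RefSeq gene from featureCounts, without normalization. Per the file headers, multi-mapping reads were counted, strand was ignored and pairs overlapping several genes were dropped, so paralogs and overlapping genes are less certain. There were 0 columns of other samples. Entrez identifiers matched a symbol for 28763 of 28775 genes.

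Counts were filtered with filterByExpr (16675 genes left), scaled with TMM (factors 0.986 to 1.03) and tested by genotype with edgeR 4.0.16 in R 4.3.3, by the older quasi-likelihood F-test, with p-values adjusted over all tested genes after Benjamini and Hochberg and a threshold of 0.05. The biological coefficient of variation was 5.33%. CPM values are TMM-scaled, with a prior count of 2 on the log2 scale. Intervals are 95% and come from the same fit. The p-values set the difference between genotypes against the spread within genotypes in these 4 libraries, taken as equal in both and moderated across genes. Replicates differed by more than counting noise (chi-square per degree of freedom 16.8 in KO and 6.56 in WT), so each library was counted once. The median absolute log2 CPM difference was 0.120 between the KO and 0.0758 between the WT libraries. Between genotypes it was 0.0880 and 0.0882 from MORC2 KO replicate 1 to WT replicates 1 and 2. From MORC2 KO replicate 2 it was 0.141 and 0.163. MORC2 KO replicate 1 was thus nearer to both WT libraries than to MORC2 KO replicate 2.

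The members and gene lists were chosen with earlier results of these data known. Genes named are MORC2, the 10 factors, the mitochondrial mRNAs, the 2 genes with the smallest p in each of 6 lists, genes within 5 kb of SLIRP, the 5 genes most like SLIRP, SRA1 and the genes called lower. NAA38, RPS26 and RPL36AL (nearest to the threshold), the mitochondrial rRNAs and tRNAs, MTRR and MDH1B were added after their values were seen. Replicate numbers pair no samples by design, and deviations of same-numbered libraries correlated at −0.124.

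Alternatives were a replicate block, offsets for GC content and length (loess span 0.3, GC content for 94.9% of tested genes) or abundance, other scalings and filters, DESeq2 1.42.0, the newer edgeR form and leaving out each library. In fits without a library, the lone sample was assumed to vary like the other genotype. Scripts were tested on simulated data.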

Additional observations from a re-analysis of the deposited data

How the results depend on the processing

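The number of libraries, 2 per genotype, limits these results, and the cause of the changes below was not tested. Genes called higher and lower, 98 and 5, became 237 and 42 with a replicate block, 186 and 62 with offsets for GC content and length and the replicate block, 174 and 81 with these offsets alone, and 463 and 182 without a filter on low counts, while DESeq2 gave 17 lower. Leaving out 1 library gave 88 to 1397 higher and 9 to 2117 lower, the highest in each without MORC2 KO replicate 1. The replicate block left 0 of the 9 factors, 0 of the 57 pathway genes and 0 of the 13 mRNAs called. A crossed replicate block, chosen after seeing the data, gave 903 higher and 809 lower among the 16675 tested genes. The genes it called held 10 of the 13 mitochondrial mRNAs and 5 of the 57 pathway genes.

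Of the 9 factors besides SLIRP, 0 to 1 were called when a library was left out (TBRG4), and 0 in every other fit. The 57 pathway genes gave 0 to 16 and the 13 mRNAs 0 to 11 in those fits; 7 mRNAs were called without a filter and 1 (MT-ND6) by DESeq2. SLIRP ranged from −0.51 to −0.27 on the log2 scale when a library was left out.

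Values near 0 changed sign. LRPPRC was at −0.0399 with the GC content and length offsets and the block, at −0.0393 with the offsets alone, at −0.0048 with RLE scaling and with DESeq2, and at −0.0380 to 0.0282 when a library was left out. FASTKD2 was at −0.016 with those offsets in both forms and between −0.0176 and 0.0786 without a library. MT-ND3 was at 0.0510 with abundance offsets and 0.0189 by library size alone, and between −0.208 and 0.192. MT-ND4L lay between −0.00874 and 0.364 and MT-ATP8 between −0.0691 and 0.244 in those fits. Nuclear genes alone, a fit chosen after seeing the data, gives no value for mitochondrial genes. Depth did not limit the 10 factors, which had at least 1006 read pairs each.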

Other observations

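The 22 mitochondrial tRNA genes drew 2475 and 2644 read pairs in MORC2 KO replicates 1 and 2, and 3121 and 2023 in WT replicates 1 and 2. Scaled for depth, these were 41.4 and 40.0 CPM in KO and 52.4 and 38.0 CPM in WT, so the groups overlapped. Mature tRNAs are shorter than the fragments that poly(A) libraries are made for, and from which RNAs these counts came was not tested. All 37 mitochondrially encoded genes together took 2.61% and 3.29% of the counts in KO and 2.59% and 2.28% in WT, and here too MORC2 KO replicate 2 was the highest library.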
